A study of Mus musculus with 8 samples.

Results

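The genes described here make, take up, move and store cholesterol in the epididymal white adipose tissue, a visceral fat depot of male mice, in obesity. They are 29 listed genes of 55487 gene identifiers in the deposited tables, found by matching each symbol to its Ensembl identifier and adding the transcript rows of that identifier. The 29 comprise 17 enzymes of cholesterol synthesis, 4 genes that control synthesis, 2 receptors for uptake, and 6 genes of efflux, lysosomal export and storage. RNA was sequenced from 8 male C57BL/6 mice, all made obese on a high-fat diet. The 4 WT mice were Slc16a1 flox/flox, with no Cre named for them. The 4 AKO mice had AP2-cre in addition to the floxed alleles, and their genotype is labelled Slc16a1 -/-. AP2-cre is a Cre recombinase under the promoter of Fabp4 (aP2), a gene of fat cells that macrophages also use. Since no Cre is named for the WT mice, presence of Cre and the intended deletion cannot be told apart here. Slc16a1 encodes MCT1, a transporter that moves lactate and related acids across the cell membrane. The labels used here state no ages. Levels are in TPM (transcript abundance scaled for length and to a fixed total). Values by mouse are given in the order WT mice 2, 3, 4 and 5, then AKO mice 3, 8, 9 and 11, and errors are SD over the 4 mice of a group (n = 4).

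Cholesterol is built from acetyl units through mevalonate, isoprenoids, squalene and lanosterol. When sterol in the endoplasmic reticulum falls, the escort protein SCAP brings the transcription factor SREBP2 (gene Srebf2) to the Golgi, where it is cut and released to switch on the synthesis genes, and the INSIG proteins hold SCAP back when sterol is plentiful. Surplus cholesterol is passed out of the cell by ABCA1 and ABCG1 to carriers such as apolipoprotein E, or is esterified by SOAT1. White fat holds much of the body's free cholesterol, mostly taken up rather than made, and macrophages of obese fat handle the lipid of dying fat cells.

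None of the 29 genes differed between AKO and WT past an FDR of 0.05 by limma with Benjamini-Hochberg adjustment over all 14172 tested genes. All 29 were expressed highly enough to be tested, and their FDR values ran from 0.831 to 0.998. No member had an unadjusted p below 0.05, and in all 29 the ranges of the groups overlapped. Across all tested genes 4 passed the FDR threshold (0.0282%), 3 of them higher and 1 lower, 673 had an unadjusted p below 0.05 (4.75%) and 346 had groups that did not overlap (2.44%). By sign, 14 members had a positive log2 difference (AKO minus WT, on log2(TPM + 1)) and 15 a negative one, with a median of -0.01, beside 53.8% positive and a median of 0.02 over all tested genes. The largest differences belonged to the storage enzyme Soat1 (0.78) and to the lysosomal exporter Npc1 (0.39), and the lowest to Idi1 (-0.29).

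**Figure D1:**
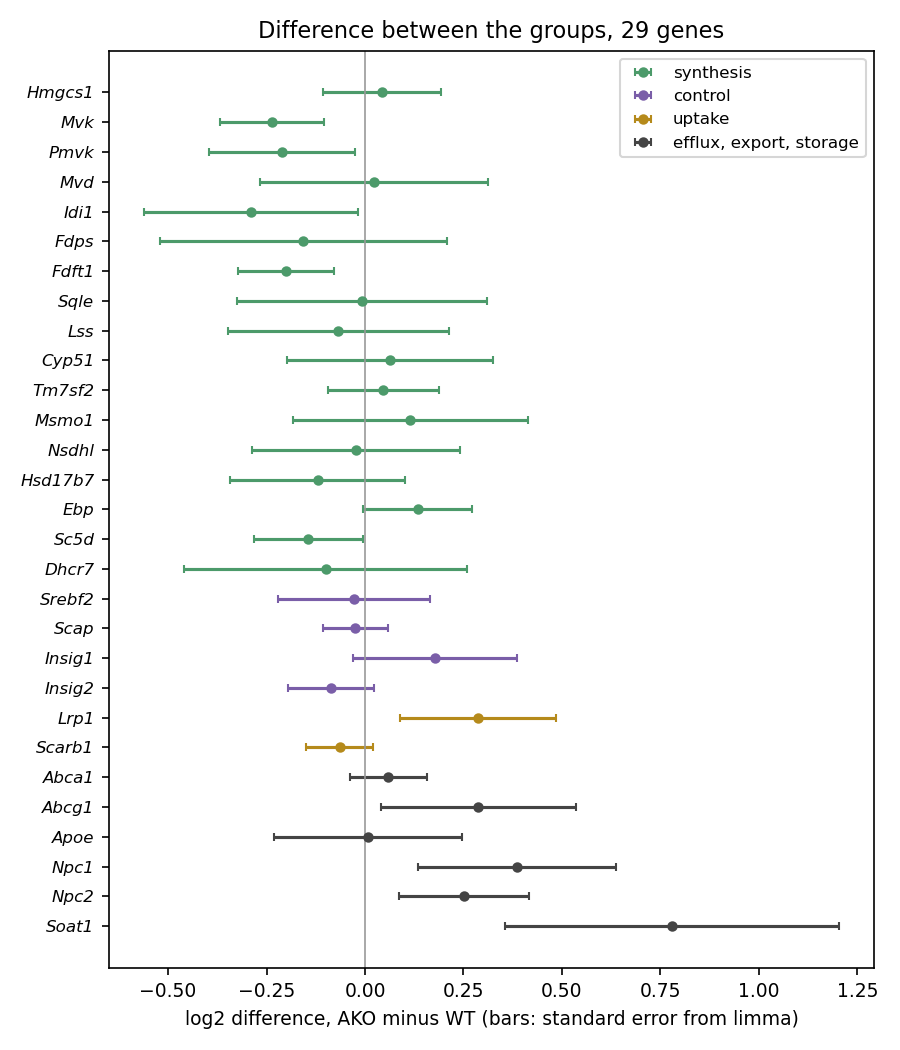
Log2 difference (AKO minus WT, horizontal axis) of each of the 29 genes (rows), with bars for the standard error from limma and colours for the role of the gene. The synthesis enzymes lie between -0.29 and 0.13, and the 6 efflux, export and storage genes between 0.01 and 0.78.

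The library-wide values bear on these genes as follows. Between 13968 and 14884 genes per library reached 1 TPM. The number of transcript rows above 0 was 63143 to 66466 in WT and 66578 to 70720 in AKO, so every AKO library had more such rows than any WT library. The total of the targeted gene Slc16a1 was 21.3 ± 5.78 TPM in WT and 24.0 ± 2.54 in AKO, so the gene total does not check the genotype labels, its AKO mean being the higher one. Markers of mature adipocytes, led by Cidec and Adipoq, summed to 10272 to 19701 TPM in WT and 9806 to 14487 in AKO, and 0 of 9 had a higher mean in AKO. Markers of lipid-associated macrophages, led by Lgals3 and Mmp12, summed to 921.4 to 6488 TPM in WT and 3817 to 7759 in AKO, and 9 of 9 had a higher mean in AKO. No marker of either list was at 0 in any mouse. WT mouse 4 had the highest adipocyte sum and the lowest macrophage sum. In bulk tissue, fewer cells of a type and less RNA per cell cannot be told apart.

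Together the 29 genes held 0.851% ± 0.130 of all TPM in WT and 0.869% ± 0.140 in AKO. Most of this was Apoe and Npc2, at 0.688% ± 0.156 and 0.698% ± 0.151. The 17 synthesis enzymes held 0.0725% ± 0.0178 and 0.0679% ± 0.00882.

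The promoters of the synthesis enzymes shared a short sequence that the choice of genes did not use. Promoters (250 bases before to 50 after an annotated start, RefSeq, build GRCm38.p6) were found for 23 of the 29 members, and Fdps, Fdft1, Sqle, Scarb1, Abcg1 and Npc1 had no entry. The NF-Y box, CCAAT on either strand (ATTGG on the other), was present in 14 of 14 synthesis enzymes with a promoter, against 37.4% of all 32851 promoters and 41.1% of all 27025 genes in the table. A gene was counted if any of its promoters held the box. It was present in 3 of 4 control genes (Srebf2, Insig1 and Insig2), in Npc2 and Soat1 among 4 efflux, export and storage genes, and not in the promoter of Lrp1. NF-Y is a general factor known to work beside SREBP2. Of the 14 enzymes, 13 had a box 100 or fewer bases before the start and 9 had at least 2 boxes before it. Neither count was made over all promoters, so position and number of boxes cannot be called particular to these enzymes. The sterol regulatory element, a site that SREBP2 binds, was searched as exact matches to TCACNCCAC on both strands. It matched only in Hmgcs1 among the members (1.24% of all promoters, and 0.551% for the form TCACCCCAC that Hmgcs1 holds). An LXR element, a direct repeat of AGGTCA with 4 bases between, was in 0 of 23 members and in 0.0152% of all promoters. A match is a description of letters and not a measured binding site. Sites that depart from the searched letters were not looked for, so a promoter without a match may still hold a site.

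The stretches that hold these matches are shown for 7 genes, 5′ to 3′ on the gene's own strand, with the NF-Y boxes and, in Hmgcs1, the sterol regulatory element in capitals. Hmgcs1 carries both motifs. Dhcr7, Idi1, Msmo1 and Cyp51 are the enzymes with a promoter entry whose levels spanned the widest ratio among the 8 mice, Tm7sf2 is one of small span, and Insig1 is the control gene that restrains synthesis. All of the stretches lie before the start. Hmgcs1 is at chr13:119690101-119690325 (+ strand), Dhcr7 at chr7:143830114-143830184 (+), Idi1 at chr13:8885546-8885605 (+), Msmo1 at chr8:64733614-64733753 (- strand), Cyp51 at chr5:4104707-4104741 (-), Tm7sf2 at chr19:6067878-6067912 (-) and Insig1 at chr5:28071181-28071215 (+).
Hmgcs1: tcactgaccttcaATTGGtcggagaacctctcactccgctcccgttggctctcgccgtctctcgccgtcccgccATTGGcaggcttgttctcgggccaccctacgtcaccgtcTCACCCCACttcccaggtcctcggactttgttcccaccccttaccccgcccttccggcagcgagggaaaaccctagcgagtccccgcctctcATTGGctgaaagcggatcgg
Dhcr7: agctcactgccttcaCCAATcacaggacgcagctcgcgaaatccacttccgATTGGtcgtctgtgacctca
Idi1: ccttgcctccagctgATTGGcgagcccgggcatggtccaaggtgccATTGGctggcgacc
Msmo1: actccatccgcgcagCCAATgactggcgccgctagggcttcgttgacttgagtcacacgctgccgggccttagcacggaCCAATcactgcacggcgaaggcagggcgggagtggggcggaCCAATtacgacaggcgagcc
Cyp51: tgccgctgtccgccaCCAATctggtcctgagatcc
Tm7sf2: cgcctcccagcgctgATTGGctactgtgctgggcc
Insig1: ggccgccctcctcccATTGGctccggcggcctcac

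**Figure D2:**
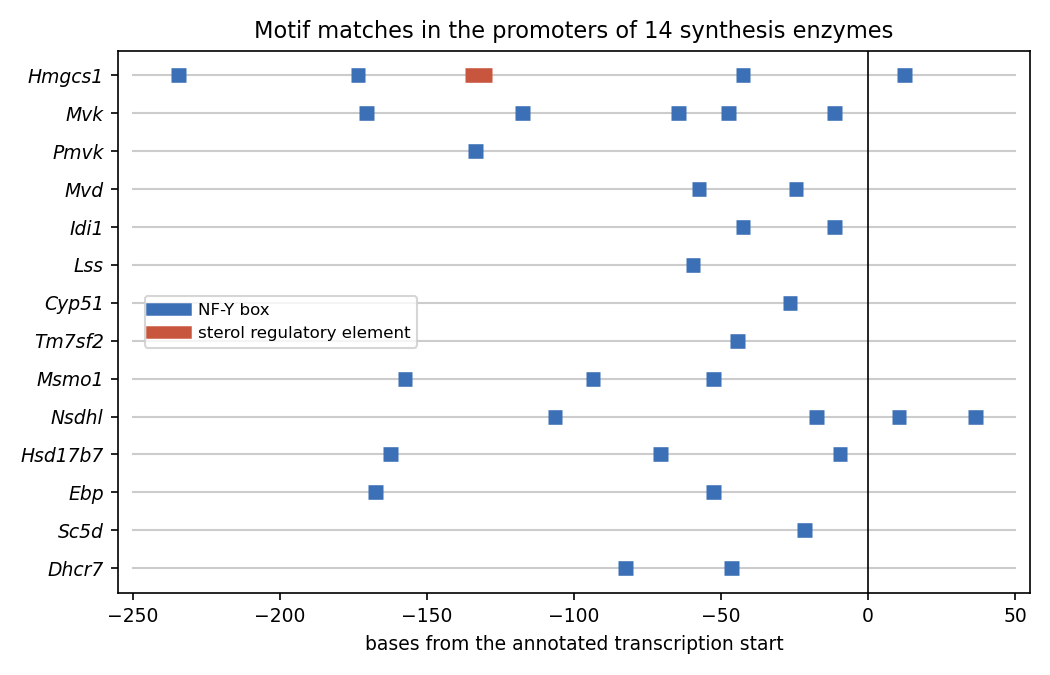
Positions of the NF-Y box (blue) and the sterol regulatory element (red) relative to the annotated transcription start (horizontal axis, in bases, start at 0) in the promoters of 14 synthesis enzymes (rows). Boxes sit within 100 bases before the start in 13 of the 14, and an exact match to the searched form of the sterol regulatory element is seen in Hmgcs1 only.

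The enzymes from acetyl units to farnesyl diphosphate did not differ between the groups beyond their spread. Hmgcs1, the synthase that makes HMG-CoA and the most abundant synthesis transcript of the list, had 145.1, 248.5, 200.4 and 202.0 TPM in WT and 195.2, 186.3, 208.4 and 216.7 in AKO. The group means were 199.0 ± 42.3 and 201.7 ± 13.5 (log2 difference 0.04, SE 0.15, limma FDR 0.957), with both the lowest and the highest mouse in WT. Mvk, which phosphorylates mevalonate, had 35.2, 40.1, 33.6 and 48.6 TPM in WT and 33.95, 27.7, 34.9 and 35.9 in AKO. Its difference of -0.24 (SE 0.13) had the smallest p of the 17 enzymes (limma FDR 0.831, exact permutation p = 0.229), and 3 of 4 AKO mice lay inside the WT range. It was -0.13 without WT mouse 5 and -0.16 without AKO mouse 8. Pmvk and Mvd, the next kinase and the decarboxylase, had means of 68.9 ± 16.7 and 12.6 ± 5.12 TPM in WT and of 58.8 ± 10.5 and 12.4 ± 3.25 in AKO. Idi1, the isomerase that interconverts the isoprenoid units, had 14.4, 33.1, 22.1 and 27.9 TPM in WT and 23.3, 12.7, 18.3 and 23.5 in AKO. Its difference of -0.29 (SE 0.27, limma FDR 0.856) was the lowest of the list, and the groups overlapped. It was -0.11 without AKO mouse 8, -0.13 without WT mouse 3 and -0.51 without WT mouse 2.

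Fdps, which joins isoprenoid units into farnesyl diphosphate, had the largest SD of log2(TPM + 1) over the 8 mice among the 17 enzymes (0.57). It had 39.3, 110.4, 53.3 and 116.1 TPM in WT and 70.9, 42.7, 73.3 and 78.2 in AKO, so that the highest mouse had 2.95 times the level of the lowest and both were WT. WT mice 3 and 5 stood above all 4 AKO mice, and WT mouse 2 stood below them. Fdft1, squalene synthase, followed another order, with 24.8, 25.6, 23.2 and 19.0 TPM in WT and 17.4, 23.5, 18.7 and 20.5 in AKO (log2 difference -0.20, SE 0.12, limma FDR 0.831). Its level in WT mouse 5 was the lowest of the WT mice, in contrast to Fdps. Sqle, squalene epoxidase and a control point of the path, was among the lowest of the list, with 5.27, 14.7, 6.09 and 10.1 TPM in WT and 10.5, 5.20, 10.4 and 8.45 in AKO (log2 difference -0.01, SE 0.32).

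From lanosterol synthase onwards, WT mouse 3 was the mouse most often highest, and WT mouse 2 and AKO mouse 8 were those most often lowest. Lss, which closes the sterol ring, had 9.97, 21.5, 11.8 and 19.8 TPM in WT and 15.01, 9.14, 16.8 and 17.8 in AKO. Cyp51, lanosterol demethylase, had 9.38, 23.2, 11.8 and 18.3 in WT and 18.8, 12.2, 15.8 and 15.95 in AKO. Msmo1, the methylsterol oxidase that follows, had 17.03, 39.5, 15.5 and 23.9 in WT and 30.6, 16.95, 29.8 and 22.6 in AKO. In each of these 3 enzymes WT mouse 3 was highest, and the groups overlapped. Dhcr7, which reduces dehydrocholesterol to cholesterol, had 15.3, 42.5, 15.7 and 31.3 TPM in WT and 27.6, 13.7, 29.2 and 21.8 in AKO, a 3.10-fold span and a log2 difference of -0.10 (SE 0.36, limma FDR 0.958). Nsdhl, a sterol dehydrogenase that helps remove the methyl groups, ranged from 22.8 to 51.0 TPM, and Hsd17b7, the ketoreductase of the same step, from 3.85 to 9.07. Ebp, a sterol isomerase, was 45.2 ± 8.43 TPM in WT and 49.2 ± 4.93 in AKO, and Sc5d, the desaturase after it, was 89.5 ± 13.4 and 80.9 ± 11.8. Tm7sf2, a sterol reductase, was 9.38 ± 1.08 and 9.80 ± 1.85 TPM and did not follow the order of the others, its highest value being AKO mouse 11.

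As a group, 6 of the 17 enzymes had a positive difference and 11 a negative one, with a median of -0.07 and a range from -0.29 to 0.13, beside the median of 0.02 over all tested genes. This count turned on single mice. It was 12 positive without AKO mouse 8 or without WT mouse 3, 11 without WT mouse 5 and 2 without WT mouse 2 or WT mouse 4, and 4 without AKO mouse 3 or AKO mouse 11. The median went to 0.12, 0.09 and 0.06 without AKO mouse 8, WT mouse 3 and WT mouse 5, and to -0.22, -0.15 and -0.14 without WT mouse 2, WT mouse 4 and AKO mouse 9. The rank of each mouse over the 17 enzymes (rank 1 the highest) had a mean of 1.65 in WT mouse 3 and 2.59 in WT mouse 5, then 3.53, 4.18 and 4.29 in AKO mice 11, 9 and 3, and 5.88, 6.71 and 7.18 in WT mouse 4, WT mouse 2 and AKO mouse 8. WT mouse 3 was the highest of the 8 in 11 of 17 enzymes and AKO mouse 8 the lowest in 9. WT mice therefore stood both at the top and near the bottom of this order.

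**Figure D3:**
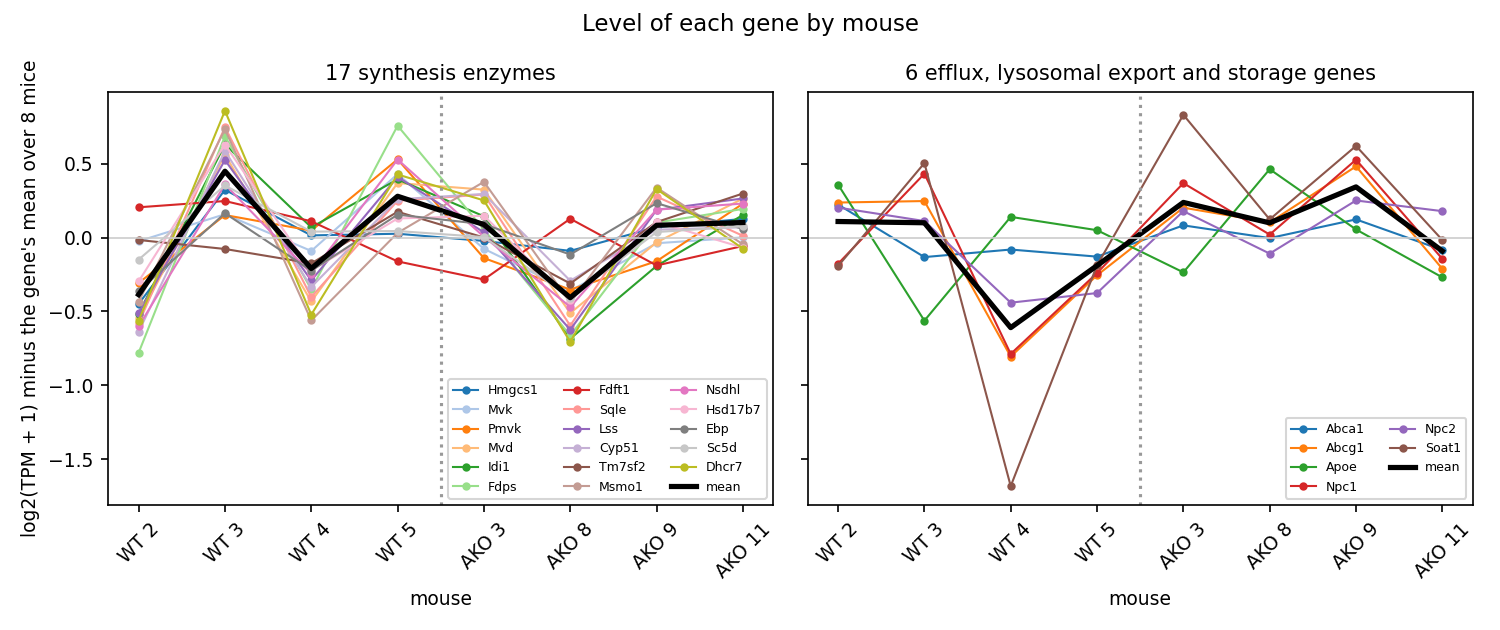
Level of each gene in each mouse (horizontal axis), as log2(TPM + 1) minus the gene's mean over the 8 mice, for the 17 synthesis enzymes and for the 6 efflux, lysosomal export and storage genes, with the mean as a thick black line. WT mouse 3 is the highest in 11 of the 17 enzymes, and WT mouse 4 the lowest in 4 of the 6 other genes.

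The SD of log2(TPM + 1) over the 8 mice had quartiles of 0.13, 0.20 and 0.31 over all tested genes, and 10 of the 17 synthesis enzymes lay above the upper quartile. Fdps had a larger SD than 93.0% of tested genes, Dhcr7 than 92.6%, Sqle than 89.8% and Msmo1 than 88.7%. Fdft1 and Tm7sf2 were near the middle, at 51.1% and 49.7%.

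The relation of each other member to Hmgcs1 over the 8 mice was described by its correlation, and none passed adjustment. Of 16 other enzymes, 15 had a positive Pearson r with Hmgcs1 over the 8 mice, with a median of 0.73 and a range from -0.13 (Fdft1) to 0.83 (Cyp51). Lss had r = 0.77 and Spearman rho = 0.88 (exact permutation p = 0.00938 and 0.00724, adjusted p = 0.0573 and 0.101 over 28 relations, n = 8). Without WT mice 2 and 3, the mice farthest from the median of Hmgcs1, r was 0.75 for Lss and 0.33 for Cyp51. The value for Cyp51 was thus much lower without those mice, whose removal also narrows the range of Hmgcs1. These genes share a library, and 0 of 28 relations had an adjusted p below 0.05. Relations of all tested genes to Hmgcs1 were not computed, so no background share stands beside the 15 of 16. Apoe had r = -0.78 and rho = -0.81 with Hmgcs1 (exact permutation p = 0.0209 and 0.0218, adjusted p = 0.0573 and 0.122, n = 8), and r was -0.67 without those mice. Abca1 (r = -0.75) and Scarb1 (r = -0.83) had adjusted p values of 0.0573 by exact permutation (n = 8), and without those mice their r was -0.16 and -0.20.

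None of the 4 control genes differed between the groups beyond the spread of the mice. Srebf2 had 22.3, 37.7, 22.0 and 27.8 TPM in WT and 31.2, 21.2, 30.6 and 23.5 in AKO (log2 difference -0.03, SE 0.19, limma FDR 0.979), with WT mouse 3 highest and AKO mouse 8 lowest, as in the enzymes. Scap, which carries SREBP2, was the steadiest member, from 20.4 to 24.3 TPM over all 8 mice, with a smaller SD than all but 8.64% of tested genes. Insig1, itself a target of SREBP2, had 101.8, 169.7, 116.4 and 177.2 TPM in WT and 170.6, 117.3, 178.8 and 164.2 in AKO. Its means were 141.3 ± 37.7 and 157.7 ± 27.6 (log2 difference 0.18, SE 0.21, limma FDR 0.882), and AKO mouse 8 and WT mice 2 and 4 were again low. The difference was 0.036 without WT mouse 2, 0.10 without WT mouse 4 and 0.11 without AKO mouse 9, and 0.28, 0.30 and 0.31 without WT mouse 3, WT mouse 5 and AKO mouse 8. Insig2, known to be regulated apart from SREBP2, ran the other way, with 73.5, 58.6, 74.6 and 64.5 TPM in WT and 55.6, 72.7, 62.5 and 64.5 in AKO, so that WT mice 2 and 4 and AKO mouse 8 were the 3 highest. Its group means of 67.8 ± 7.63 and 63.8 ± 7.06 overlapped.

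Both uptake receptors were abundant. Lrp1, a large receptor that takes up lipoprotein remnants and many other ligands, had 369.3, 491.3, 261.1 and 347.4 TPM in WT and 496.2, 384.1, 522.5 and 368.2 in AKO. Its means were 367.3 ± 95.0 and 442.7 ± 77.9 (log2 difference 0.29, SE 0.20, limma p = 0.181, FDR 0.831, exact permutation p = 0.171). WT mouse 4 was the lowest, and the difference was 0.14 without it and 0.44 without WT mouse 3. Scarb1, the receptor that exchanges cholesterol with high-density lipoprotein, was 117.4 ± 11.1 TPM in WT and 112.1 ± 6.57 in AKO and spanned only 1.27-fold over the 8 mice.

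The 6 efflux, export and storage genes all had positive differences, with a median of 0.27, and none passed the test. The median was 0.11 without WT mouse 4 and 0.17 without Npc1 and Npc2, and 5 of 6 were positive when WT mouse 3 or either of AKO mice 8 and 9 was left out. The smallest limma p of the 6 was 0.101 (Soat1, FDR 0.831), and the background of 53.8% positive differences stands beside the 6 of 6. Soat1, which esterifies cholesterol for storage, had 38.9, 63.7, 13.2 and 39.1 TPM in WT and 80.2, 48.7, 69.2 and 44.1 in AKO. The means were 38.7 ± 20.6 and 60.5 ± 17.03 (log2 difference 0.78, SE 0.42, exact permutation p = 0.143), with all AKO mice above 3 of the 4 WT mice and WT mouse 3 inside the AKO range. The highest mouse had 6.07 times the level of the lowest, and Soat1 varied more than 96.9% of tested genes. The difference was 0.35 without WT mouse 4, and 1.08 without WT mouse 3 (limma unadjusted p = 0.0250, FDR 0.332).

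Npc1 and Npc2 hand cholesterol out of the lysosome. Npc1 had 33.1, 51.1, 21.4 and 31.7 TPM in WT and 48.8, 38.1, 54.6 and 33.9 in AKO, with means of 34.3 ± 12.3 and 43.9 ± 9.51 (log2 difference 0.39, SE 0.25, limma FDR 0.831, exact permutation p = 0.200). Npc2, the more abundant of the pair, had 715.6, 671.7, 457.7 and 478.9 in WT and 703.8, 576.5, 739.9 and 703.7 in AKO (log2 difference 0.25, SE 0.17, limma FDR 0.831). WT mouse 2 had a Npc2 level above 3 of the 4 AKO mice. Without WT mouse 4 the differences were 0.19 for Npc1 and 0.15 for Npc2, and without WT mouse 3 that of Npc1 was 0.59. The lowest mouse was WT mouse 4 in both genes and the highest AKO mouse 9.

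The groups also overlapped for the exporters and their carrier. Abca1, the pump that loads apolipoproteins with cholesterol, had 69.3, 53.9, 55.9 and 54.0 TPM in WT and 62.7, 59.0, 64.5 and 55.8 in AKO (log2 difference 0.06, SE 0.10, limma FDR 0.915). WT mouse 2 was the highest of all 8, and the other 3 WT mice were among the 4 lowest. Abcg1, the pump that passes cholesterol on to high-density lipoprotein, had 44.9, 45.2, 21.3 and 31.6 TPM in WT and 43.8, 40.8, 53.3 and 32.6 in AKO (log2 difference 0.29, SE 0.25, limma FDR 0.847), and the difference was 0.07 without WT mouse 4 and 0.18 without AKO mouse 9. Apoe, the lipoprotein carrier, was the most abundant of the 29, at 7883, 4163, 6774 and 6364 TPM in WT and 5222, 8472, 6387 and 5100 in AKO. Its means were 6296 ± 1560 and 6295 ± 1563, and AKO mouse 8, the lowest in most enzymes, was the highest for Apoe.

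Set against each other within each mouse, synthesis minus efflux overlapped between the groups through WT mouse 2. The mean log2(TPM + 1) of the 17 enzymes was 4.39, 5.23, 4.57 and 5.06 in WT and 4.87, 4.37, 4.86 and 4.88 in AKO. That of the 6 efflux, export and storage genes was 7.42, 7.41, 6.70 and 7.12 in WT and 7.55, 7.41, 7.65 and 7.22 in AKO. Synthesis minus efflux was -3.02, -2.18, -2.13 and -2.06 in WT and -2.68, -3.03, -2.79 and -2.33 in AKO. The group means were -2.35 ± 0.45 and -2.71 ± 0.29, with a difference of -0.36 between them and an SD of 0.38 pooled within groups. That SD describes single mice and is not the error of the difference, which was not tested. WT mouse 2 and AKO mouse 8 had the lowest values, and WT mice 3, 4 and 5 stood above all 4 AKO mice. Without WT mouse 2 the difference was -0.59, and leaving out any other single mouse gave -0.49 to -0.25. With Npc1 and Npc2 left out of the 6 genes, the difference was -0.35. Taken apart, the mean of the 17 enzymes differed by -0.07 (AKO minus WT) and that of the 6 genes by 0.29. Within the 6, the differences were largest in Soat1 (0.78) and Npc1 (0.39) and smallest in Abca1 (0.06) and Apoe (0.01).

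**Figure D4:**
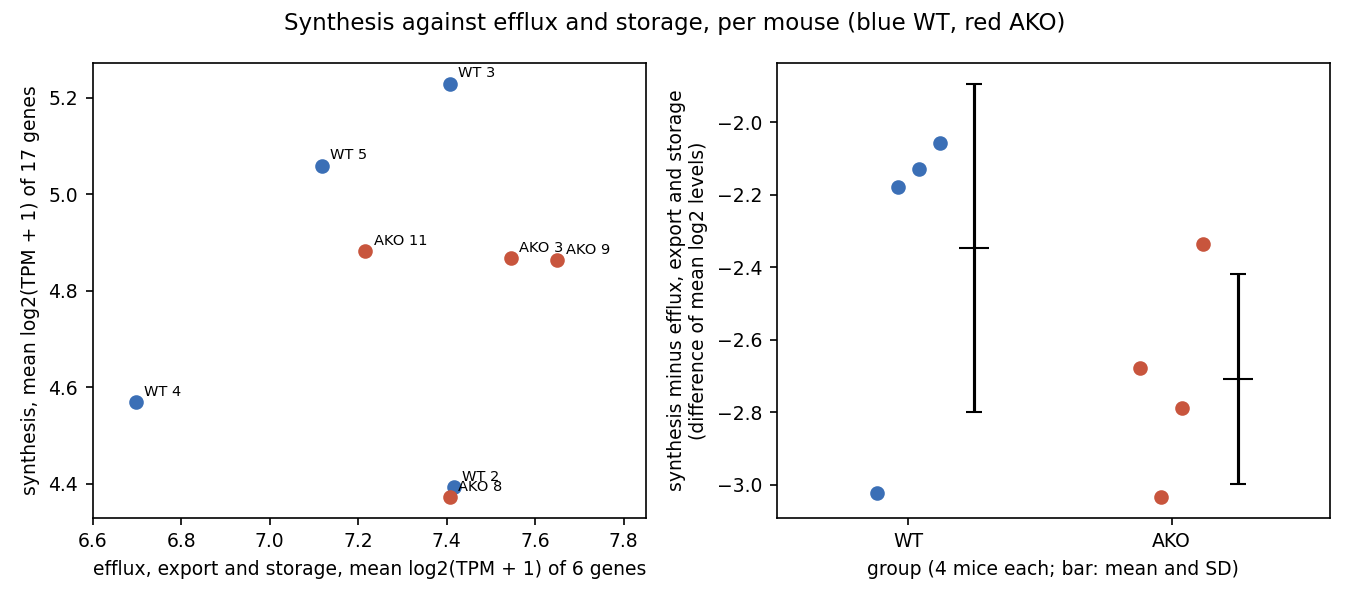
Left, mean log2(TPM + 1) of the 17 synthesis enzymes against that of the 6 efflux, export and storage genes, 1 point per mouse (blue WT, red AKO). Right, synthesis minus efflux per mouse with the mean and SD of each group, -2.35 ± 0.45 in WT and -2.71 ± 0.29 in AKO, with overlapping points.

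Levels of Npc1, Soat1, Lrp1 and Abcg1 went with those of macrophage markers across the mice, and none of the 17 synthesis enzymes passed the same test. Genes outside the list were not set against the macrophage or the adipocyte score. The share of all tested genes that follow these scores is therefore unknown, and the relations cannot be called particular to these members. WT and AKO mice were pooled without a term for group, so a difference between the groups can be part of r. Relations within a group were not tested. The lipid-associated macrophage score (mean log2(TPM + 1) of 9 markers) was 7.63, 8.73, 5.81 and 7.33 in WT and 8.72, 8.30, 9.06 and 8.01 in AKO. Npc1 followed it in the same order in all 8 mice (r = 0.97, rho = 1, exact permutation p = 2.48e-05, the smallest that 8 mice can give, adjusted p = 0.00144 over 58 relations). Soat1 had r = 0.97 and rho = 0.90 (exact permutation p = 0.000397 and 0.00456, adjusted p = 0.00489 and 0.0529), and Lrp1 had r = 0.96 and rho = 0.95 (exact permutation p = 9.92e-05 and 0.00114, adjusted p = 0.00288 and 0.0221). Abcg1 had r = 0.91 and rho = 0.86 (exact permutation p = 0.00409 and 0.0107, adjusted p = 0.0339 and 0.0888). Without WT mouse 4 and AKO mouse 9, the mice farthest from the median of the score, r was 0.94 for Npc1, 0.91 for Soat1, 0.91 for Lrp1 and 0.61 for Abcg1. No relation passed adjustment over the 6 mice left, but 6 mice allow few pairings, so this result says little about the relations. The value of Abcg1 fell the most. Leaving out the mice with the lowest and the highest score also narrows the range of the score.

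Npc2 (r = 0.79, adjusted p = 0.0945 by exact permutation), Abca1 (r = 0.28) and Apoe (r = -0.35) had no relation past adjustment. Of the 17 enzymes, 13 had a positive and 4 a negative r with the score, from -0.28 to 0.71 (Msmo1, adjusted p = 0.160 by exact permutation), and 0 passed. The difference between these relations and those of the transport genes was not tested. Against the mature adipocyte score the signs were opposite, at r = -0.98 for Lrp1 and -0.97 for Npc1 (adjusted p = 0.00489 for both by exact permutation) and -0.89 for Soat1 (adjusted p = 0.0149 by exact permutation). Without WT mouse 3 and AKO mouse 9 these were -0.97, -0.95 and -0.93. Of the 17 enzymes, 15 had a negative and 2 a positive r with the adipocyte score, and 0 passed. Their r ran from -0.86 (Msmo1, adjusted p = 0.0566 by exact permutation) to 0.28, with a median of -0.39. The macrophage and adipocyte scores were themselves related (r = -0.92, rho = -0.98, exact permutation p = 0.000223 and 0.000397, n = 8), so the relations to each cannot be told apart. The part of these markers in the differences between the groups was not tested.

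**Figure D5:**
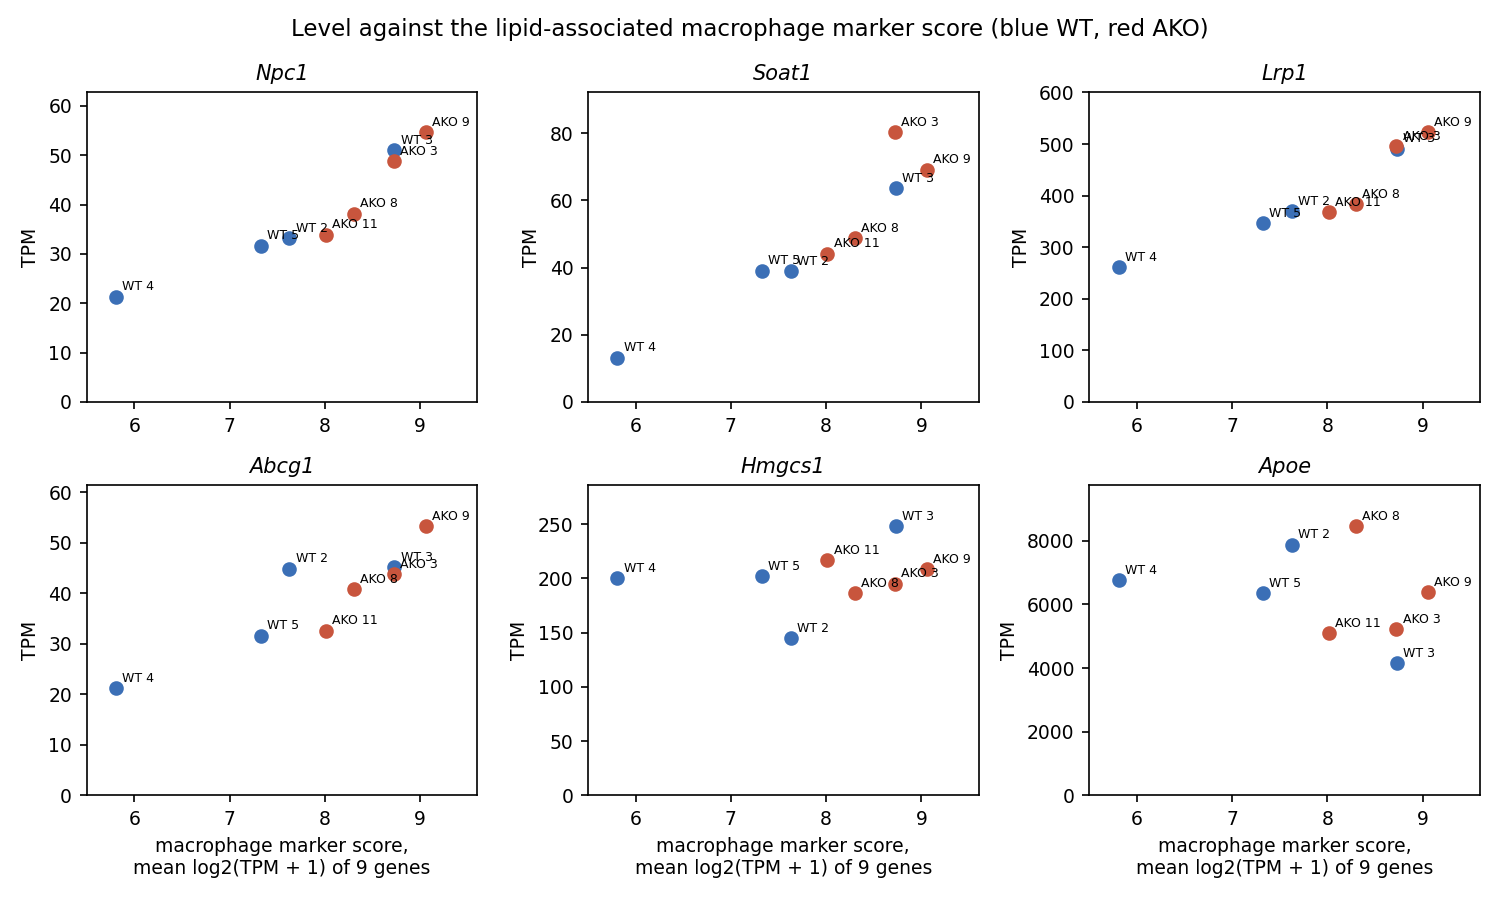
TPM of Npc1, Soat1, Lrp1, Abcg1, Hmgcs1 and Apoe (vertical axes, from 0) against the lipid-associated macrophage marker score (horizontal axis, mean log2(TPM + 1) of 9 genes), 1 point per mouse (blue WT, red AKO). Npc1, Soat1 and Lrp1 rise along the score with r from 0.96 to 0.97, while Hmgcs1 and Apoe do not follow it.

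Transcript rows of the members were also tested one by one. The 29 genes had 201 rows, of which 71 were high enough to test among 33323 rows of all genes. None of the 71 passed an FDR of 0.05 by limma (7 of all rows did, 0.021%), and 5 had an unadjusted p below 0.05, a share of 7.04% beside 5.56% of all rows. These 5 rows were named after their values were seen, and the transcript behind a row is not named in the tables. In Ebp, row 4 had 5.98, 13.7, 6.74 and 8.50 TPM in WT and 16.2, 16.4, 19.2 and 14.6 in AKO, so that its groups did not overlap (log2 difference 0.91, SE 0.22, limma FDR 0.766). That row held 19.3% of the Ebp total in WT and 33.8% in AKO, while the Ebp total differed by 0.13. Row 6 of Soat1 was 0.785 ± 0.991 TPM in WT and 5.05 ± 3.54 in AKO (limma FDR 0.838), and row 10 of Lrp1 0.930 ± 0.447 and 2.05 ± 0.507 (limma FDR 0.838). Both rows had a WT mean below 1 TPM. All AKO libraries had more rows above 0 than the WT libraries, and the part of this in such low rows was not tested. Row 1 of Mvk was lower in AKO by mean, at 23.0 ± 5.002 and 17.3 ± 2.45, as was row 2 of Sc5d, at 38.6 ± 5.24 and 29.7 ± 4.56. Neither passed the FDR threshold (0.838 by limma for each). The groups of this Sc5d row did not overlap either, but only just, with 32.76 TPM in the lowest WT mouse and 32.57 in the highest AKO mouse. How many of all tested rows had groups that did not overlap was not counted.

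A wider list of 40 sterol genes also had no call. Of these 39 were in the tables and 34 were tested, with 16 positive and 18 negative differences, 0 past the FDR threshold by limma and 1 at an unadjusted p below 0.05. That gene was Ggps1, which makes the isoprenoid geranylgeranyl diphosphate, at 23.9 ± 2.94 TPM in WT and 20.1 ± 0.942 in AKO (log2 difference -0.23, limma FDR 0.831). Of later and branch enzymes 1 of 5 was positive, of genes that handle SREBP 3 of 8, of the LXR side 2 of 5, of uptake receptors and their chaperone 2 of 5, and of transport, ester hydrolysis and oxysterol genes 8 of 11. Of the 4 genes with the smallest p in the positive direction, Stard3, a late endosomal cholesterol carrier, was 27.2 ± 8.47 TPM in WT and 37.5 ± 9.50 in AKO, and the scavenger receptor Msr1 was 23.4 ± 18.0 and 37.0 ± 12.3. Lipa, the lysosomal lipase that frees cholesterol from its esters, was 215.6 ± 122.2 and 319.6 ± 96.6 TPM, and the ester hydrolase Nceh1 was 38.4 ± 27.0 and 58.2 ± 19.1. On the other side Abcg4 was 1.79 ± 1.06 and 0.912 ± 0.441, Acat2, an acetyl-CoA acetyltransferase at the entry of the path, 45.6 ± 6.67 and 38.1 ± 7.43, and Erlin2, which takes part in breaking down sterol-regulated proteins, 39.4 ± 3.28 and 35.6 ± 2.22. Their limma FDR was 0.831 for each of these 8 genes.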

How the data were processed

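Per the labels' protocols, RNA of frozen fat was extracted with Trizol and sequenced from Illumina TruSeq RNA libraries, 1 per mouse. The authors deposited 1 table of TPM values per library (152298 rows, with several per gene that are taken as its transcripts, summing to 1000000 within rounding). HISAT2, DESeq2 and the build mm9 are named, without role or version, per the submitters' processing notes; neither the tool that gave the TPM nor its annotation is stated in the sources used here. Since TPM holds no read number, sequencing depth is unknown and counting intervals cannot be given.

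Rows were summed per gene, and 401 rows without a gene (0.605% to 0.943% of TPM) were left out. limma 3.58.1 (R 4.3.3) with a mean-variance trend was fitted to log2(TPM + 1) for genes reaching 1 TPM in 4 or more samples, with Benjamini-Hochberg adjustment and an FDR threshold of 0.05. The log scale understates changes of low genes. Exact permutation tests of single genes used all 70 arrangements and were two-sided (smallest p 0.0286). Relations across mice used exact permutation over all pairings, two-sided, with WT and AKO mice pooled and no term for group. The fits and relations were tested on simulated data. P-values cover the spread between these mice. The members, lists and tests were chosen with earlier results of these data known. Named genes are all members, Slc16a1, of the wider list those past the threshold and the 4 smallest p per direction, and up to 2 of the highest markers per list. Promoters were matched by symbol; the table's build is not that of the files, and its coordinates are those of its own build. Marker lists not printed in the report are summed in the closing section. Alternatives were another pseudocount, no filter, the highest row per gene, 2 scalings, sample quality weights, a robust spread and leaving out each mouse.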

Additional observations from a re-analysis of the deposited data

Results flagged for a closer look

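In 3 of 58 groups of 4 mice (29 genes in each genotype), 1 mouse stood apart from the other 3, its gap, as a share of the group's whole range, being above Dixon's critical value for 4 samples. Chance flags about 1 in 20 such groups. Fdps was 42.7 TPM in AKO mouse 8, below the 70.9 to 78.2 of the other AKO mice (0.837 of the range). Sc5d was 63.5 TPM in the same mouse, below 84.6 to 89.0 (0.849). Abca1 was 69.3 TPM in WT mouse 2, above 53.9 to 55.9 in the other WT mice (0.856).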

How the results depend on the processing

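No member passed the FDR threshold under any alternative (smallest limma FDR 0.332), and 13 of the 29 kept their sign throughout. Of 435 values of single members under alternatives, 386 kept their sign and 49, in 16 members, took the opposite one; the cause was not tested. With the highest row per gene the log2 differences were 0.30 for Fdft1, -0.023 for Cyp51, 0.050 for Hsd17b7, -0.15 for Ebp, 0.029 for Srebf2, 0.039 for Scap and -0.0076 for Apoe. With sample quality weights they were 0.051 for Sqle, -0.0067 for Tm7sf2, 0.039 for Srebf2 and -0.049 for Apoe, and Apoe was -0.010 with median-ratio scaling and -0.0037 without mitochondrial transcripts. Leaving out each mouse gave ranges of -0.10 to 0.16 for Hmgcs1, -0.15 to 0.21 for Mvd, -0.44 to 0.070 for Fdps, -0.20 to 0.24 for Sqle, -0.25 to 0.13 for Lss, -0.14 to 0.27 for Cyp51, -0.045 to 0.16 for Tm7sf2, -0.053 to 0.38 for Msmo1, -0.23 to 0.15 for Nsdhl, -0.24 to 0.070 for Hsd17b7, -0.30 to 0.17 for Dhcr7, -0.12 to 0.13 for Srebf2, -0.057 to 0.026 for Scap and -0.18 to 0.13 for Apoe. Among members that kept their sign whichever mouse was left out, the ranges were -0.35 to -0.069 for Pmvk, -0.29 to -0.14 for Fdft1, 0.035 to 0.21 for Ebp, -0.22 to -0.033 for Sc5d, -0.15 to -0.022 for Insig2, -0.11 to -0.0036 for Scarb1 and 0.025 to 0.14 for Abca1. Of these, Fdft1 and Ebp took the opposite sign with the highest row per gene, as given above. Of all genes, 5 were higher with a pseudocount of 0.1, and leaving out 1 mouse gave 1 to 3 higher and 0 to 2 lower. Members higher at an unadjusted limma p below 0.05 numbered 1 (Soat1) with quality weights and 0 to 3 when 1 mouse was left out (the 3, Lrp1, Npc1 and Soat1, without WT mouse 3). Of all 14172 tested genes, 366 were higher at that p in the fit used above, 880 with quality weights and 1297 without WT mouse 3. The rise without WT mouse 3 was thus seen across the whole table and not in these members alone. Members lower numbered 1 (Mvk) with the highest row and 0 to 1 when 1 mouse was left out (Fdft1, without WT mouse 5). Of all tested genes, 308 of 13569 were lower with the highest row and 195 of 14172 without WT mouse 5. In the wider list 3 were higher with quality weights and 0 to 5 when 1 mouse was left out (5 without WT mouse 3), and 0 were lower with the highest row, 2 with quality weights and 0 to 2 when 1 mouse was left out. Synthesis enzymes with a positive difference numbered 2 to 12 when 1 mouse was left out. Member rows higher at that p numbered 7 without a filter and 3 to 12 when 1 mouse was left out (12 without WT mouse 3), and rows lower 0 to 2. Of all 33323 tested rows, 1853 had that p in either direction in the fit used above and 3555 without WT mouse 3. Without a filter it was 4045 of 99191 rows. Without the 2 mice farthest from the median, 0 members had a relation past adjustment to the macrophage score and 0 to the adipocyte score; 6 mice allow fewer arrangements. No paired analysis was possible because the groups share only the number 3, on different animals. TPM keeps no depth, so counting error could not be set apart from the spread of the mice.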

Other observations

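Markers of other cell types gave these summed levels. General macrophage markers, led by Lyz2 and C1qb, summed to 2208 to 5161 TPM in WT and 3577 to 6299 in AKO (8 of 8 with a higher mean in AKO), and those of fibroblasts and progenitors, led by Dcn and Col3a1, to 1358 to 2458 and 1738 to 2573 (7 of 7). Endothelial markers, led by Cdh5 and Egfl7, summed to 341.3 to 596.2 and 411.8 to 546.0 TPM (1 of 5), and red blood cell markers, led by Hbb-bs and Hba-a1, to 1520 to 5870 and 1275 to 4380 (0 of 3). T cell markers (led by Trac and Cd2) summed to 10.8 to 18.6 and 12.5 to 24.1 TPM, B cell markers (Cd79b and Cd79a) to 3.75 to 6.65 and 6.74 to 10.1, and mesothelial markers (Upk3b and Msln) to 18.96 to 54.2 and 9.6 to 43.4. Muscle markers summed to 11.1 to 34.7 and 16.6 to 65.4 TPM, nearly all of it Acta1, with Tnnt3 next. Epididymal markers (Crisp1 and Lcn5) summed to 0.05 to 7.57 TPM in WT and 0 to 0.55 in AKO.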
